A study of Mus musculus with 16 samples.

Results

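The genes described here are protein-coding genes that have a single exon in every transcript of the mm10 gene annotation deposited with a mouse spleen RNA sequencing series, clustered histone genes left out. A gene symbol counted when it had at least 1 coding segment, when each of its transcripts had exactly 1 exon, and when all transcripts lay on 1 chromosome and strand. This held for 2022 of 20508 coding gene symbols (9.86%). The rule removed 58 clustered histone genes and 28 further single-exon symbols that lay on more than 1 chromosome or strand. The comparison set comprised 18300 coding genes on 1 chromosome and strand with 2 or more exons in every transcript, called multi-exon genes below. A further 31 genes had both kinds of transcript and entered neither set.

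The series sequenced polyadenylated spleen RNA from 16 untreated mouse samples in 4 groups of 4. A Triple KO lacked Zfp36, TNFR1 and TNFR2 (Zfp36-/-, TNFR1-/-, TNFR2-/-), and a Double KO lacked both TNF receptors only (TNFR1-/-, TNFR2-/-). Of the wild-type groups, one carried the study code NG66 of the knockouts and the other NG108. The product of Zfp36, tristetraprolin (TTP), recognises AU-rich sites of mRNAs and speeds their degradation. The labels do not give age, strain or whether each sample is 1 animal. The file used here is an annotation without sample values, so expression, depth and genotype effects were not analysed here. Genes are the units of every count below, no gene is a replicate of another, and no test was made.

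Most mammalian coding genes are interrupted by introns, which the spliceosome removes. Intronless coding genes arise in several ways, among them reverse transcription of a spliced mRNA back into the genome and repeated tandem duplication of an intronless ancestor. Odorant, vomeronasal type 1, trace amine and bitter taste receptors are G protein-coupled receptors whose coding sequence typically sits on 1 exon. Type I interferons, secreted antiviral cytokines that spleen cells can produce, are mostly intronless too. A read from a transcript with 1 exon cannot span a splice junction, so junctions cannot separate such an mRNA from genomic DNA. Many genes of this set have multi-exon transcripts in another annotation, as described below.

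The sequences that show the main structural feature are short windows around annotated gene starts. They come from RefSeq (GRCm38.p6, the same assembly as mm10), written 5' to 3' on the gene's strand, with 12 bases before the start. In the first set the annotated gene starts at the initiator codon, in capitals, and no 5' UTR was deposited. They are the odorant receptor gene with the longest coding sequence, the vomeronasal receptor gene with the shortest and the first gene of the largest vomeronasal cluster, a trace amine receptor gene, a bitter taste receptor gene and 2 interferon genes. The last gene, Ifnb1, has a 5' UTR and no initiator codon at its start.
Olfr225 (chr11:59612954-59612983, plus): aggtcacagctgATGgagaagaacaatgag
Vmn1r237 (chr17:21314005-21314034, plus): aattttgaaagcATGgaaaacagtgacatt
Vmn1r91 (chr7:20101146-20101175, plus): aaaggcctctccATGtctgttcatggtaaa
Taar5 (chr10:23970694-23970723, plus): cagaacctataaATGagagctgtcctcctc
Tas2r118 (chr6:23970043-23970072, minus): cagagtggaagcATGgtgccaacgcaagtc
Ifna1 (chr4:88850075-88850104, plus): gcaacactcaccATGgctaggctctgtgct
Ifna2 (chr4:88683762-88683791, minus): gcaagacccacaATGgctagactctgtgct
Ifnb1 (chr4:88522777-88522806, minus): aggtagcagccgacaccagcctggcttcca

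Odorant receptors also share a coding stretch at the end of the third membrane helix, next to the cytoplasm. To show a piece shared between genes far apart, the in-frame word of 12 coding bases held by the most single-exon Olfr genes was read from their coding strands. It was ATGGCCTATGAC, printed in capitals with its surroundings, from GENCODE M21 transcripts on GRCm38. The genes are the first carrier in each of the 4 largest odorant receptor clusters.
Olfr1008 (chr2:85689773-85689802, plus): ttgtcctcaATGGCCTATGACtgctatgtg
Olfr623 (chr7:103660874-103660903, minus): ttgcttgccATGGCCTATGACcgtttcatt
Olfr9 (chr10:128990256-128990285, plus): cttactgccATGGCCTATGACcggtatgct
Olfr924 (chr9:38848449-38848478, plus): ctgacagccATGGCCTATGACcgctatgtt

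Sensory receptor genes made up most of the set. Odorant receptor genes (symbols starting with Olfr) numbered 1010 of the 2022 genes. Vomeronasal receptor genes (Vmn) numbered 194, bitter taste receptor genes (Tas2r) 35 and trace amine-associated receptor genes (Taar) 14. The prefix Ifn took 15 genes, all of them interferon ligands. The remaining 754 genes (37.3%) carried other symbols.

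Single-exon structure was the rule within these families and rare outside them. It held for 1010 of 1115 Olfr genes (90.6%), 35 of 35 Tas2r genes and 14 of 15 Taar genes, against 4.0% of 18994 coding genes with other symbols. The exception among the Taar genes was Taar2, with 2 exons and 1017 coding bases. The Vmn prefix joins 2 receptor families with different structures. Of Vmn1r genes, 194 of 207 (93.7%) were single-exon genes. Of 121 Vmn2r genes 0 were, and these had a median of 6 exons and a median coding length of 2559 bases. The 102 multi-exon Olfr genes had a median of 2 exons and a median coding length of 940.5 bases, close to the 939 bases of the single-exon ones.

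The 6 genes with the Ifn prefix outside the set were Ifng, which encodes interferon gamma, Ifnk, which encodes interferon kappa, and the receptor genes Ifnar1, Ifnar2, Ifngr1 and Ifngr2. Ifng had 4 exons and Ifnk 2. The receptor genes had between 7 and 11 exons in their longest models. The single-exon structure was thus found in the type I ligand genes of chromosome 4 from Ifnb1 to Ifne, and not in these receptor genes.

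Coding lengths were nearly uniform within the receptor families. Single-exon Olfr genes had a median coding length of 939 bases with an interquartile range of 930 to 948 bases. The median was 921 bases (909 to 933) for Vmn genes, 930 bases (919.5 to 961.5) for Tas2r genes and 1038 bases (1032 to 1074) for Taar genes. At least 900 and under 1000 coding bases were found in 98.4% of Olfr, 82.0% of Vmn, 80.0% of Tas2r and 7.1% of Taar genes, against 5.7% of multi-exon genes. Multi-exon genes of the same families were alike in length too. The window held 96.1% of 102 multi-exon Olfr genes and 8 of 9 multi-exon Vmn1r genes. Multi-exon Vmn2r genes had an interquartile range of 2547 to 2571 bases. All multi-exon genes together had a median of 1314 bases with a far wider interquartile range of 801 to 2112 bases. The stop codon is not counted in these lengths.

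**Figure D1:**
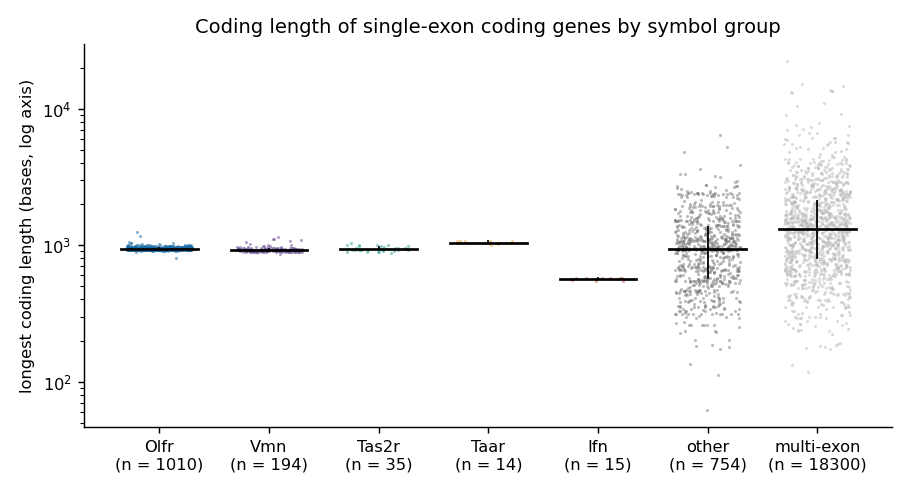
Longest coding length per gene in bases on a log axis, for the 6 symbol groups of single-exon genes and for multi-exon genes, of which 1200 are drawn. Each point is a gene, the horizontal line is the median and the vertical line the interquartile range. The 5 prefix families form narrow bands, while other single-exon genes spread from 62 to 6378 bases.

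The extremes of the receptor families stayed near their medians. The shortest single-exon Olfr genes were Olfr936 (801 coding bases), Olfr1289 (894) and Olfr48 (903). The longest were Olfr225 (1257), Olfr94 (1158) and Olfr735 (1062). Among Vmn genes the range ran from 867 bases in Vmn1r237 to 1152 bases in Vmn1r213. Vmn1r115 and Vmn1r87 had 885 bases, and Vmn1r199 and Vmn1r214 had 1101. Tas2r genes ranged from 879 bases (Tas2r143) to 1041 bases (Tas2r102). Taar genes ranged from 996 bases in Taar1 to 1074 bases, a length that Taar7a, Taar7b, Taar7d, Taar7e and Taar7f had in common.

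Interferon genes were the shortest of the 5 prefix families by median coding length. The 15 genes had a median of 567 coding bases and ranged from 546 to 576. Ifnb1, the gene for interferon beta, and Ifnz had 546 bases each. Ifna4 had 558 bases, and Ifne, the gene for interferon epsilon, had 576. The other 11 genes, all Ifna genes or Ifnab, had 567 or 570 bases.

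The 754 genes with other symbols had a median coding length of 943.5 bases and a wide interquartile range of 573.75 to 1358.25 bases. The longest coding sequences were those of Pkdrej (6378 bases), a polycystin-family receptor of sperm, Rtl1 (5232 bases), an imprinted gene derived from a retrotransposon, and Rimbp3 (4818 bases). The shortest were Ppp2r3d (62 bases), Gm20594 (111) and Aym1 (135). The coding length of Ppp2r3d was no multiple of 3, which was also the case for Ear4, Olfr151, Olfr197 and Olfr242. In all, 2017 of 2022 genes had a coding length that was a multiple of 3.

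Genes just outside the exon rule differed from the members by very small gaps. The multi-exon genes with the fewest intron bases were Fam181b, Olfr192, Olfr908 and Vmn1r227, each with 2 exons separated by 1 base, and Olfr426, separated by 2 bases. Joining exons across gaps shorter than 30 bases brought the set to 2032 genes.

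Families within the group of other symbols were chosen by size, as symbol stems with at least 5 single-exon genes. All 52 Krtap genes, which encode hair keratin-associated proteins, had 1 exon, with coding lengths from 174 to 1101 bases. All 22 Pcdhb genes, which encode beta protocadherins of neuronal cell adhesion, had 1 exon, with coding lengths from 2316 to 2487 bases. Single-exon structure held for 6 of 10 Fzd genes, which encode Wnt receptors, among them Fzd1, Fzd2 and Fzd7. It held for 10 of 26 Cldn genes, which encode tight junction claudins, among them Cldn3, Cldn4 and Cldn5. It held for 7 of 11 Ear genes, which encode eosinophil-associated ribonucleases, and for 12 of 94 Gpr genes, which encode G protein-coupled receptors.

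Transcription factor families were split by structure. Of 19 Sox genes, 8 had a single exon, among them Sox2 and Sox11 of neural and stem cells and Sox4 of lymphoid progenitors. Of 44 Fox genes, 13 had a single exon, among them Foxc1, Foxd1 and Foxl2, while the regulatory T cell factor gene Foxp3 had 13 to 14 exons. Of 15 Pou genes, 5 had a single exon, namely Pou3f1, Pou3f2, Pou3f3, Pou3f4 and Pou5f2. Of 26 genes with symbols from Kcna to Kcng, which encode potassium channel subunits, 3 did (Kcna3, which serves in T cells, Kcna5 and Kcnf1).

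In the list of basic leucine zipper and immediate early genes, 9 of 14 were single-exon genes. These were Jun, Junb and Jund, which encode subunits of the AP-1 transcription factor, Cebpa, Cebpb and Cebpd, which encode factors of myeloid cells and acute inflammation, and Ier2, Ier5 and Ier5l. Fos and Fosb, whose products pair with Jun proteins, had 4 exons each, Atf3 had 4, and Cebpg and Egr1 had 2. In the list of aminergic receptors, 8 of the 17 genes found had 1 exon, among them the adrenergic receptor genes Adra2a and Adrb1 and the serotonin receptor gene Htr1a. Adrb3 had 4 exons.

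Spleen cell receptors and heat shock genes showed both structures. Of 11 immune receptors, S1pr4, which encodes a sphingosine 1-phosphate receptor of lymphocytes, was the only single-exon gene, with 1158 coding bases. S1pr1 and Gpr183, which guide lymphocyte position, and the chemokine receptor genes Cxcr4 and Cxcr5 had 2 exons each. The heat-inducible genes Hspa1a (1923 coding bases) and Hspa1b (1926) had a single exon, while the constitutive chaperone gene Hspa8 had 9. Of 31 Sprr and Lce genes, which encode proteins of the cornified skin envelope, Sprr4 was the only single-exon gene.

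Several single-exon genes are held to be copies of a multi-exon parent. From background knowledge 18 pairs of a presumed copy and parent were listed, and their parentage was not tested. In 12 pairs the copy was a single-exon gene, and the coding sequences of copy and parent were aligned as nucleotides. Identity over aligned positions ranged from 67.4 to 94.8%. Positions opposite a gap were left out, from 0 in Pgk2 and Rpl10l to 379 in Actl7a. No unrelated coding sequences were aligned for comparison. In 9 of the 12 pairs the parent lay on X and the copy on an autosome, a share that describes the choice of pairs. G6pd2 on chromosome 5 shared 94.8% of 1539 aligned bases with G6pdx, the 13-exon gene for glucose-6-phosphate dehydrogenase. Pgk2 on chromosome 17 shared 79.3% of 1251 bases with Pgk1, an 11-exon glycolysis gene. Pdha2 shared 77.1% with Pdha1, Gk2 80.8% with the glycerol kinase gene Gyk, and Rpl10l 84.7% with the ribosomal protein gene Rpl10.

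The remaining pairs gave a similar range. Cstf2t shared 76.3% with Cstf2, a cleavage stimulation factor gene, Cetn1 80.0% with the centrin gene Cetn2, Rbmxl2 68.6% with Rbmx, and Tktl2 77.4% with Tktl1. Of the pairs with an autosomal parent, Pabpc2 shared 83.3% with Pabpc1, a poly(A)-binding protein gene, and Actl7a 69.9% with the beta-actin gene Actb. Fthl17 lay on X and shared 67.4% with the ferritin heavy chain gene Fth1 of chromosome 19. Among the listed copies outside the set, Utp14b had 3 to 4 exons, and Zfp36l3 and Hspa1l had 2 each. The listed copies Zfa, Ppp1r2-ps3 and Kpna2-ps had no coding gene of that symbol in the annotation.

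Members of the receptor and interferon families lay in clusters. A cluster was a run of at least 3 genes of the same prefix group with no more than 100 kb between neighbouring genes. By this measure 972 of 1010 Olfr genes (96.2%) lay in 57 clusters and 178 of 194 Vmn genes (91.8%) in 18 clusters. All 15 Ifn genes and all 14 Taar genes each lay in 1 cluster. Of the Tas2r genes, 27 of 35 (77.1%) lay in 3 clusters. For the whole set the share was 70.0%, and for the other symbols it was 27.9%. The other symbols were pooled as a group but are no family, so their clusters can join unrelated genes. Some of these clusters were also widened by genes placed at several sites. No such share was computed for multi-exon genes.

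**Figure D2:**
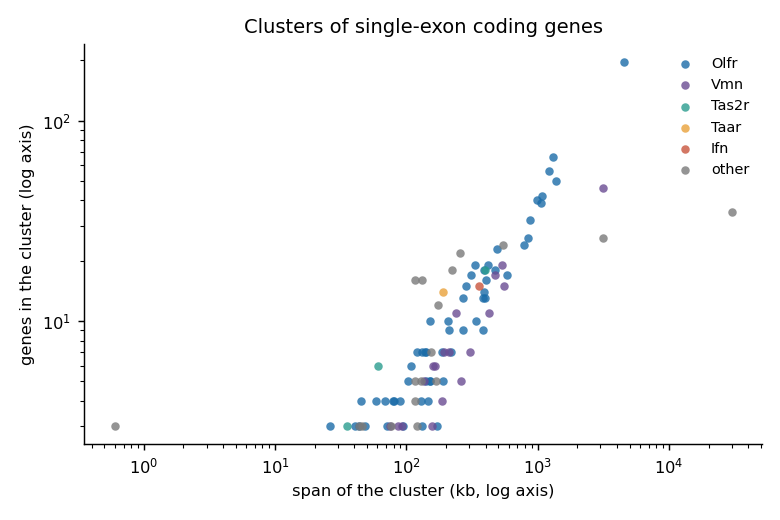
Number of single-exon genes against span in kb for 98 clusters, both on log axes, coloured by symbol group. The largest cluster holds 196 Olfr genes over 4570.8 kb. The widest spans of the other group include genes placed at several sites.

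The largest cluster held 196 Olfr genes on chromosome 2, from Olfr996 to Olfr1270 (chr2:85579215-90150036). Of these, 70 lay on the plus strand and 126 on the minus strand, with a median gap of 18.37 kb, and 17 other coding genes lay inside. The next largest held 66 Olfr genes on chromosome 7 (chr7:102476773-103778343), with 35 on plus and 31 on minus. The largest Vmn cluster held 46 genes on chromosome 7, from Vmn1r91 to Vmn1r160. Of these, 21 were placed at several sites and had only 12 distinct extents, so its count and span rest partly on symbols that share sites. Of the 57 Olfr clusters, 12 had all genes on 1 strand.

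The groups were unevenly spread over chromosomes. Chromosome 7 held 385 single-exon genes, 20.1% of its coding genes, of which 215 were Olfr and 95 Vmn genes. Chromosome 2 held 317 (18.3%), of which 269 were Olfr genes. Chromosome 5 had the smallest share, 28 of 1156 coding genes (2.4%), with 0 Olfr genes. Of the Tas2r genes, 33 of 35 lay on chromosome 6. Tas2r119 on chromosome 15 and Tas2r134 on chromosome 2 were the others.

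The largest Tas2r cluster held 18 genes from Tas2r120 to Tas2r140 (chr6:132656957-133055793). A cluster of 6 genes from Tas2r130 to Tas2r114 had all genes on the minus strand, and a cluster of 3 from Tas2r143 to Tas2r126 had all on the plus strand. The Taar cluster spanned 189.1 kb from Taar1 to Taar9 (chr10:23920406-24109534), with 9 genes on plus and 5 on minus. Its only other coding gene was Taar2.

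The interferon cluster spanned 358.2 kb on chromosome 4, from Ifnb1 to Ifne (chr4:88522025-88880201). Of 33 coding genes in it, 32 were single-exon genes. They were the 15 Ifn genes, Klhl9, which encodes an adaptor of a ubiquitin ligase, and 16 genes with Gm symbols. The Gm genes had coding lengths of 534 to 570 bases, close to those of the Ifn genes. The only multi-exon gene was C87499, with 4 exons. From Ifnb1 to Klhl9 all genes lay on the minus strand, and from Gm13271 to Ifna1 all lay on the plus strand. Ifne, at the far end, lay on the minus strand.

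**Figure D3:**
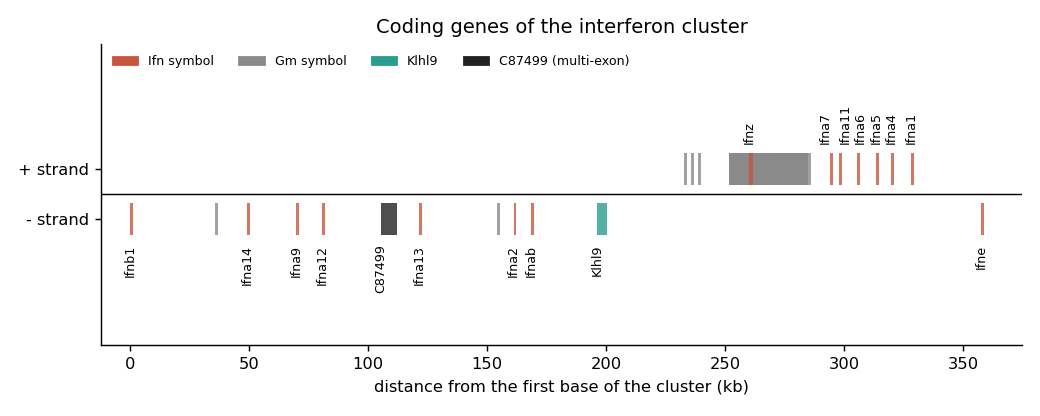
Coding genes of the interferon cluster by distance in kb from the first base of the cluster, at the 3' end of Ifnb1, with plus-strand genes above the line and minus-strand genes below. Boxes are to scale except that the shortest genes are drawn at a minimum width. The broad grey block is drawn from Gm genes placed at several sites, from the first to the last site.

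Some members were placed at several sites. Of the 2022 genes, 71 had transcripts at more than 1 site on the same chromosome and strand, up to 10 sites for Gm13285 of the interferon cluster. These comprised 49 genes with other symbols, 21 Vmn genes and 1 Olfr gene. The sequences at the sites of a gene were not compared, and whether reads can be assigned to 1 site was not tested. The first and last sites of these genes widen clusters. The largest cluster of other symbols ran over 29951.4 kb of X, from Gm2913 to Gm2933. Among genes placed at 1 site, the largest cluster of other symbols held 24 genes on chromosome 16 over 542.1 kb, from Cldn17 to Krtap16-8.

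Some clusters of other symbols held a single family. The 22 Pcdhb genes lay in 1 cluster on the plus strand of chromosome 18 (chr18:37264998-37521419). Of 52 Krtap genes, 51 lay in clusters, some of which also held other symbols. One such cluster held 16 genes with Krtap or Gm symbols on the minus strand of chromosome 11 (chr11:99550132-99665960). Other clusters joined genes of different families. The genes Ndn, Magel2, Mkrn3 and Peg12 of the imprinted Prader-Willi region formed a cluster of 4 on chromosome 7 (chr7:62348277-62464510).

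Neighbours were compared by symbol, as the first 4 letters of the gene symbol, left out for Gm, LOC and Rik symbols, which can be set for multi-exon genes too. The nearest coding gene had the same stem for 92.9% of Olfr genes, 70.6% of Vmn genes and 9 of 15 Ifn genes. The share was 69.3% over all single-exon genes with a stem and 11.5% over multi-exon genes. Outside the 4 sensory prefixes it was 22.9%. The nearest coding gene was at a median distance of 13.48 kb for Olfr genes and 21.93 kb for Vmn genes, against 5.55 kb for multi-exon genes.

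Nesting in introns was more frequent among the other symbols. Of 754 such genes, 89 (11.8%) lay inside an intron of another coding gene, against 167 of 18300 multi-exon genes (0.91%). To count, a whole gene had to fit in an intron. The median gene span was 1654 bases for other symbols placed at 1 site, against 20320 bases for multi-exon genes. All 22 Pcdhb genes were among the nested ones, since the symbol Pcdha4-g spans the protocadherin locus on the same strand. Over all symbols 91 single-exon genes were nested, 2 of them Olfr genes, and 69 without the Pcdhb genes, 37 on the strand of the host and 32 on the opposite strand. The nested genes with the largest hosts were Cstf2t in Prkg1 (host of 1200547 bases, opposite strand), Gm15881 in Galntl6 (1137576 bases), 1700071K01Rik in Accn1 (1088232 bases), 4933405O20Rik in Nell1 (887940 bases) and Pcdhb1 in Pcdha4-g (887460 bases). The last 4 lay on the strand of the host.

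The X chromosome held 79 of the 754 genes with other symbols (10.5%), against 4.1% of multi-exon genes. Of these 79, 42 had a symbol of the Gm, LOC or Rik type. Olfr genes were nearly absent from X, with 6 of 1010.

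Most single-exon genes had no annotated UTR. A UTR here is any exon base outside the coding segment and the stop codon. Of 2022 genes, 1190 (58.9%) had neither a 5' nor a 3' UTR, so that the exon ended at the stop codon, against 364 of 18300 multi-exon genes (2.0%). The share was 83.8% of Olfr genes, 90.2% of Vmn genes, 97.1% of Tas2r genes and 92.9% of Taar genes. It was 40.0% of Ifn genes and 15.4% of the other symbols. Without the 4 sensory prefixes, 122 of 769 genes (15.9%) had none. These prefixes do not take all vomeronasal-like genes. The 769 genes still held 3 with V1r symbols (V1ra8, V1rd18 and V1rd19) and 26 Gm genes inside the largest Vmn cluster, of which 6 genes such as Gm10666 had the same extent as a Vmn gene. Without these, 94 of 740 genes (12.7%) had no UTR. Missing UTRs were not limited to single-exon genes. Of the 364 multi-exon genes without a UTR, 103 were Vmn2r genes, out of 121 multi-exon Vmn2r genes in all. Of 102 multi-exon Olfr genes, 5 had no UTR.

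**Figure D4:**
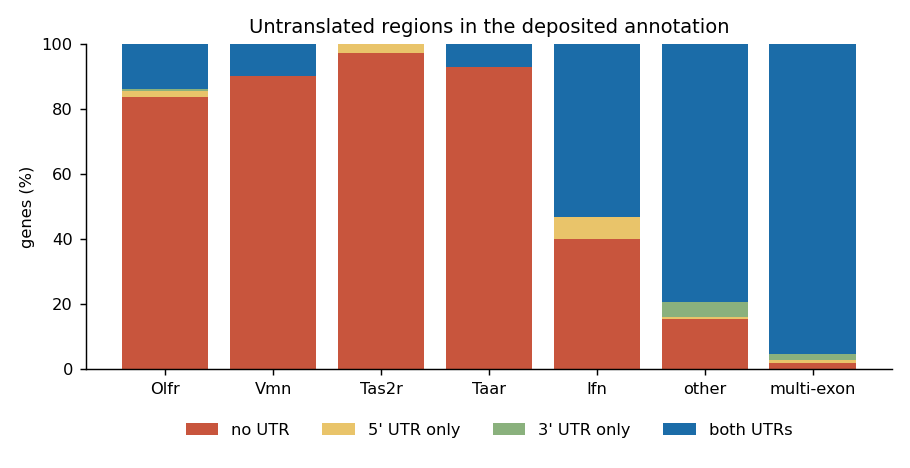
Share of genes in percent with no UTR, a 5' UTR only, a 3' UTR only or both in the deposited annotation, by symbol group and for multi-exon genes. Genes with no UTR range from 15.4% of other symbols to 97.1% of Tas2r genes, against 2.0% of multi-exon genes.

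Where sensory receptor genes had UTRs, their medians were short. The 147 Olfr genes with a 3' UTR had a median of 61 bases, and the 156 with a 5' UTR a median of 38 bases. The 19 Vmn genes with UTRs had medians of 92 bases for the 3' UTR and 98 bases for the 5' UTR. Tas2r119 had a 5' UTR of 1 base and no 3' UTR, and was the only Tas2r gene with any UTR. Taar8c was the only Taar gene with UTRs, of 39 and 35 bases. Single genes had long ones. Olfr613 had a 5' UTR of 1419 bases, the longest of the whole set, and a 3' UTR of 2764 bases. Olfr976 had a 3' UTR of 1732 bases, and Vmn1r148 and Vmn1r132 had 5' UTRs of 1352 and 1347 bases.

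Interferon UTRs were short as well. Ifnb1 had a 5' UTR of 20 bases and a 3' UTR of 201 bases, and Ifnz had 655 and 258 bases. Ifna12 had 68 and 159 bases, Ifna13 74 and 175, Ifnab 41 and 56, Ifna4 45 and 38, Ifna11 40 and 34, and Ifne 22 and 63. Ifna7 had a 5' UTR of 3 bases and no 3' UTR. Ifna1, Ifna2, Ifna5, Ifna6, Ifna9 and Ifna14 had no UTR. The multi-exon gene Ifng had 108 and 631 bases.

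The other symbols had UTRs nearer to those of multi-exon genes. Their median 3' UTR was 508.5 bases over 634 genes, against 771 bases over 17765 multi-exon genes, and their median 5' UTR was 125 against 145 bases. The longest 3' UTRs belonged to Purb (7313 bases), which encodes a single-stranded nucleic acid-binding protein, Sox11 (6953), Pigm (6129), an enzyme gene of glycosylphosphatidylinositol anchors, Rgs9bp (5511) and Epm2aip1 (5310). The longest 5' UTRs after that of Olfr613 were those of Sox21 (1395), Vmn1r148 (1352), Vmn1r132 (1347) and Dbpht2 (1329). Jun had 951 and 1231 bases of 5' and 3' UTR, and Jund 1319 and 533.

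The start windows printed above were examined for all members with a RefSeq match by symbol, chromosome and strand. Of 1233 genes without a deposited 5' UTR, 989 matched, and in 921 of them (93.1%) every RefSeq start window placed ATG at the annotated start. This was so for 675 of 707 matched Olfr genes, 155 of 156 Vmn genes and 47 of 80 other symbols. It was also so for 5 of 6 matched Ifn genes, all but Ifna6. Among genes with a deposited 5' UTR it was so for 4 of 539, and among multi-exon genes for 273 of 12965. In the 921 genes the deposited model starts at its first coding base, and the RefSeq start reads ATG. The positions of coding starts were not compared between the annotations.

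The same loci were read in GENCODE M21, another annotation of the same assembly, as coding genes that overlapped at least 50% of the deposited coding bases on the same strand. Of 2022 genes, 1984 matched. At least 1 coding transcript with 2 or more exons was found for 1085 of them (54.7%), and these were mostly sensory receptor genes. The count was 894 of 1004 Olfr genes (89.0%) and 126 of 193 Vmn genes (65.3%). It was 0 of 35 Tas2r, 0 of 15 Ifn and 0 of 14 Taar genes, and 65 of 723 other symbols (9.0%). In all 894 Olfr and 126 Vmn genes, at least 1 coding transcript still had its coding sequence on 1 exon.

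**Figure D5:**
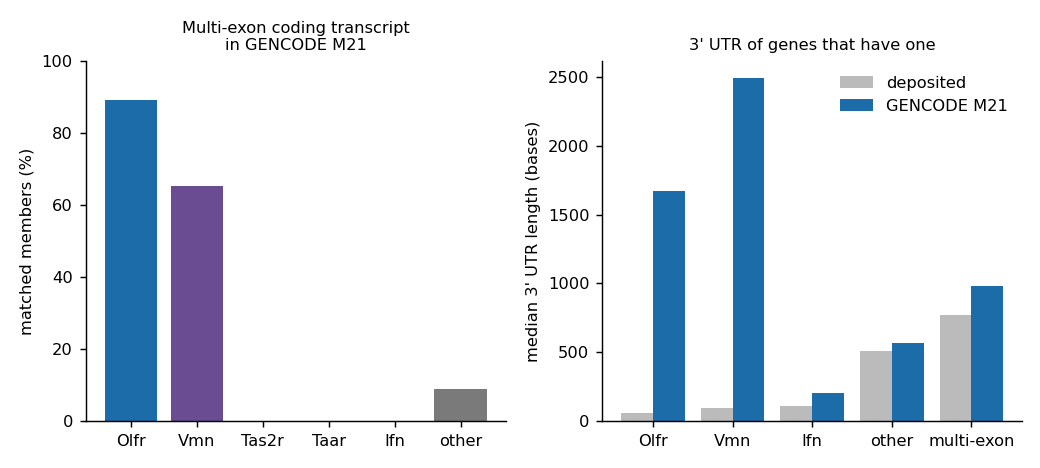
Left, share in percent of matched single-exon genes with a multi-exon coding transcript in GENCODE M21, by symbol group. Right, median 3' UTR length in bases in the deposited annotation (grey) and in GENCODE M21 (blue), over genes that have one. Olfr genes stand at 89.0%, and their median 3' UTR is 61 bases in the first and 1673.5 bases in the second annotation.

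UTRs differed between the annotations in the same families. Of 842 matched Olfr genes without a deposited UTR, 782 (92.9%) had one in GENCODE M21, as did 123 of 174 Vmn genes (70.7%) and 15 of 34 Tas2r genes. It was 1 of 6 Ifn genes, namely Ifna2, and 1 of 13 Taar genes, namely Taar1. The median 3' UTR was 1673.5 bases over 930 Olfr genes and 2495 bases over 140 Vmn genes, against 983 bases over 18049 multi-exon genes. For the other symbols it was 564 bases. The longest UTR of each gene was used in both annotations.

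Single genes show the size of the difference. Olfr48, with no UTR in the deposited annotation, had 669 and 2273 bases of 5' and 3' UTR and a transcript with 2 exons in GENCODE M21. Olfr1270 changed from 32 and 71 bases to 400 and 3835 bases. Olfr225 had no UTR in either. Htr1b, a serotonin receptor gene without a deposited UTR, had 462 and 3101 bases.

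In GENCODE M21 every coding transcript had 1 exon for 899 of the 1984 matched genes (45.3%). The others did not meet the rule of this set there. For 20 of the 1984, all coding transcripts there had 2 or more exons. They comprised 7 Olfr genes, Vmn1r90 and 12 other symbols, among them Rtl1, Gpr6 and Rsc1a1. The coding sequence was split in every transcript for 4, namely Msl2, Sec1, Ppp2r3d and D830031N03Rik, the last of which matched the cytoskeletal linker gene Macf1.

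Median base composition differed between the groups, whose ranges overlapped. The median GC content of the coding sequence was 43.8% in Olfr, 41.8% in Vmn, 38.6% in Tas2r and 47.6% in Taar genes, all below the 52.6% of multi-exon genes. It was 53.6% in Ifn genes and 56.4% in the other symbols. Sox, Fox and Pou genes of the set had a median of 70.1%, Krtap genes 59.5% and Pcdhb genes 51.4%. Coding bases were covered by the reference for 2011 of 2022 genes.

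The shared word ATGGCCTATGAC was present in frame in 237 of 1009 covered single-exon Olfr genes (23.49%). It was chosen as the most frequent one in these genes, so this share is a description of the choice. Of genes that did not enter the choice, 31 of 102 covered multi-exon Olfr genes held it, and 35 of 18144 covered multi-exon genes in all (0.19%). It was found in 0 of 193 covered Vmn, 35 Tas2r, 14 Taar, 15 Ifn and 745 other single-exon genes. Among Olfr carriers its first base lay at coding position 334 to 442, with a median of 352, counted from 1 at the A of the initiator codon. In Olfr1270 it began at position 346. Genes without these exact letters may hold a variant of the stretch.

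The TTP core site TATTTAT was counted on the transcript strand in the longest 3' UTR that the reference covered in full. It was present in 89 of 673 searched genes (13.2%) and in 3454 of 15059 multi-exon genes (22.9%). The share depended on length. Among genes with a 3' UTR of at least 500 and under 1000 bases it was 17.4% of single-exon and 18.6% of multi-exon genes. At 1000 to under 2000 bases it was 34.1 and 33.0%, at 2000 bases or more 43.4 and 52.3%, and under 500 bases 3.6 and 6.1%. Olfr genes carried it in 3 of 146 searched 3' UTRs, of which 142 were under 500 bases. The longer 3' UTRs of GENCODE M21 were not searched.

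Sites of 7 genes, among them interferon, AP-1 and C/EBP genes, are printed because the Triple KO lacks TTP. One copy of the site is in capitals in each window, and none of these windows shows that TTP binds there.
Ifnb1 (chr4:88522025-88522053, minus): acctcagaaaataaaaTATTTATaataca
Ifna13 (chr4:88643648-88643676, minus): gtaaaagcatgTATTTATtttcagtctgt
Jun (chr4:95049079-95049107, minus): ttgcttgtgcaTATTTATaatagcgttcg
Jund (chr8:70700359-70700387, plus): cgattccgcccTATTTATgtttctactcg
Cebpd (chr16:15889228-15889256, plus): ggttggacattTATTTATtgtaacagaac
Ch25h (chr19:34473823-34473851, minus): atgaaatgataTATTTATattgaaaaaag
Thbd (chr2:148404541-148404569, minus): atatttgtacaTATTTATttattggagtt

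Of the 6 searched Ifn genes, 2 carried the site, Ifnb1 and Ifna13, with 1 copy each. The copy of Ifnb1 lay within the last 29 bases of its 3' UTR. Ifna12, Ifnab, Ifne and Ifnz had 0 copies, and the other 9 Ifn genes were not searched. In the basic leucine zipper and immediate early list, Jun, Jund and Cebpd carried 1 copy each, while Cebpb, Ier2, Ier5 and Ier5l had 0. Cebpa and Junb were not searched. Ch25h, an interferon-induced enzyme gene of oxysterol synthesis, had 1 copy, and Thbd, which encodes the anticoagulant receptor thrombomodulin, had 3. Ch25h and Thbd were chosen outside the lists, and Ifna13 was added once its count was seen.

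The most copies were 4, in Insm1, Pou3f1 and Olfr613, and 3 copies were found in Thbd, Bhlhe22 and Tigd4. Overlapping copies were counted separately, as in Insm1 and in Thbd, whose window above holds another, overlapping copy in lower case. These 6 genes are all those with 3 or more copies and were named after the counts were seen. Of 8 searched Sox genes, Sox1, Sox2, Sox11 and Sox21 carried the site. Of 7 searched Fox genes, Foxd1 and Foxq1 did. Of 17 searched Pcdhb genes 5 did, and of 39 searched Krtap genes 2 did. Adrb1 was the only carrier among 6 searched aminergic receptor genes.

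Annotated 3' ends were examined for the poly(A) signal AATAAA, on the transcript strand in the last 50 bases of 3' UTRs of at least 50 bases. Such ends matter because the libraries were made from polyadenylated RNA. The signal was present in 310 of 599 searched genes (51.8%) and in 9005 of 14552 multi-exon genes (61.9%). The groups differed, with 4 of 91 Olfr genes (4.4%), 3 of 14 Vmn genes and 2 of 6 Ifn genes. The other symbols stood at 301 of 488 (61.7%), near the multi-exon genes, and Krtap genes at 32 of 38 (84.2%). Most sensory receptor genes had no 3' UTR to search. Deposited 3' UTRs of Olfr genes had a median of 61 bases, against 1673.5 bases in GENCODE M21, whose ends were not searched. The Olfr count thus describes deposited ends only.

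Examples of the signal, in capitals, are shown for 4 genes of the lists, ending at or near the annotated 3' end.
Ifnb1 (chr4:88522025-88522052, minus): cctcagaaAATAAAatatttataataca
Ier2 (chr8:84661331-84661358, minus): gaaAATAAAgaccatcggtgtaaaacgc
Hspa1a (chr17:34969359-34969386, minus): tgaaAATAAActtcaaaatcacttgcca
Sox4 (chr13:28950730-28950757, minus): tggggtctgtgcaaaAATAAAgaattaa
In Ifnb1 the poly(A) signal and the TTP core site lay within the same window, with the signal before the site.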

How the data were processed

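Polyadenylated spleen RNA of 16 samples was sequenced. TopHat2 (2.0.4) and the build mm10 are named in the record, per the submitters' processing notes. The file deposited by the authors is a gene annotation whose other values are 1-based feature starts and ends, with no score and no sample column. How these models were built is not given in the sources used here.

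Members and lists were chosen with earlier results of these data known. The GENCODE M21 comparison, RefSeq start windows, shared word, GC content and symbol families were added after the annotation had been examined. Each gene was represented by its longest coding length and its longest UTR. Bases came from GENCODE M21 transcripts placed by exon coordinates, with 0 conflicting bases between transcripts, and 2007 of 2008 looked-up stop codons of members read as a stop. The plan asked for protein identity of copies and parents. Coding nucleotides were aligned instead, globally with match 2, mismatch -3, gap open -7 and extension -1. Structure functions were tested on simulated transcripts. Named genes were the Ifn, Taar and Tas2r genes, for the other groups the 3 longest and 3 shortest coding sequences and the ends of the largest cluster, the 5 longest UTRs, the 5 nested genes with the largest hosts, the 5 genes with the fewest intron bases, copies and parents, and list members. Python 3.11.15, numpy 2.4.6, pandas 2.3.3, scipy 1.17.1 and matplotlib 3.10.9 were used.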

Additional observations from a re-analysis of the deposited data

How the results depend on the processing

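No paired analysis was possible because no sample has a value in the annotation. The share of members in a cluster was 70.0% and became 64.7% with a distance of 50 kb, 75.3% with 500 kb, 75.2% with at least 2 genes, and 66.9% with no coding gene of another group between neighbours. Restricted to the 5 prefix families it was 95.1%, an alternative chosen after seeing the data, as was the restriction to genes placed at 1 site (68.2%). The share with no UTR was 58.9% and fell to 15.9% without the sensory prefixes and to 12.7% when V1r symbols and Gm genes of the largest Vmn cluster were also left out, chosen after seeing the data. Without the sensory prefixes the median 3' UTR rose from 335 to 493.5 bases. TATTTAT was found in 13.2% of searched 3' UTRs, TTATTTATT in 2.7% and ATTTA in 43.5%. AATAAA was found in 51.8% of ends, and AATAAA or ATTAAA in 62.1%. The number of members was 2022 and ranged from 2024 to 2053 over 4 other rules. The median coding length was 936 bases in all settings. Reference coverage limited the site search to 673 of 809 members with a 3' UTR.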
